A study of Rattus norvegicus with 8 samples.

Results

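The clones of library UI-R-C0 were followed on 8 spotted arrays that each received the same rat RNA in both dyes. Members were all spots whose name begins with UI-R-C0, and spots sharing a name were averaged, which gave 2723 of the 8778 rat cDNA clones on the array, the largest contribution of any library. Of these, 2713 were spotted 2 times and 10 were spotted 4 times, 5466 spots in all. The RNA came from Rattus norvegicus and was labelled a brain, heart and liver control mix, extracted as total RNA and labelled by an indirect protocol. On 4 arrays the RNA named test carried Cy5 and the RNA named ref carried Cy3 (test_in_Cy5, replicates 1 to 4), and on the other 4 the dyes were exchanged (test_in_Cy3, replicates 1 to 4). Test and ref were the same RNA, given as 1 biological sample with technical replicates, so all p-values below measure only the spread between hybridisations of the same clones. The sources used here do not give strain, age or the number of animals.

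A cDNA library is a collection of DNA copies of the mRNAs of a tissue, and a spotted cDNA array carries 1 amplified clone per spot. The brightness of a spot depends in part on the abundance of its mRNA in the labelled RNA. Libraries named UI-R belong to a rat expressed sequence tag programme that used normalisation and serial subtraction, procedures that lower the share of clones from abundant mRNAs. The sources used here do not say which of them UI-R-C0 went through. The files pair no clone with a gene, and 0 of the 2723 names matched a symbol or synonym in a table of 47357 rat genes. Defining genes of brain, heart, liver and blood could therefore not be looked up, and the clones are described by name, plate and position. No clone sequence is printed, because the files used here hold none.

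The placement of the library on the array bears on every comparison. The array had 48 print blocks, and UI-R-C0 was spread evenly over them, with 110 to 122 of its spots in each block. Within the blocks it was not spread evenly. It occupied 12 of the 19 spot rows, of which 3 held no other library, and 7 rows held none of its clones. A spot row and a library can therefore be told apart only in the mixed rows. All 56 blank spots lay in spot row 16, in 21 of the blocks. The array test_in_Cy3 replicate 3 exceeded the remaining 7 in median brightness in both channels. The main differences from other clones, the rank stability and the count of dye calls are also given without it.

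Most UI-R-C0 clones lay close to the blanks. In Cy3 the median clone of the library had an intensity of 109991, 108861, 109328 and 109985 on test_in_Cy5 replicates 1 to 4, against blank medians of 96304, 101562, 98259 and 98531. On test_in_Cy3 replicates 1 to 4 it had 114673, 115422, 210965 and 100895, against 100530, 100886, 182684 and 91905. The median clone was thus 1.07 to 1.16 times as bright as the median blank in Cy3. In Cy5 it had 207578, 165290, 170480 and 179498 on test_in_Cy5 replicates 1 to 4, and 191640, 173774, 592726 and 157243 on test_in_Cy3 replicates 1 to 4. That was 1.24 to 1.60 times the median blank in Cy5. Intensities are the deposited values, not background-subtracted, and a clone's value is the geometric mean of its spots.

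UI-R-C0 clones were dimmer than the other 6055 clones on every array. The log2 median of the library minus that of the other clones was -0.04 ± 0.0090 in Cy3 and -0.11 ± 0.034 in Cy5 (SD, n = 8 arrays), below 0 on 8 of 8 arrays in both channels (exact two-sided sign-flip permutation test, p = 0.00781 for each, and 0.00781 after Benjamini-Hochberg adjustment over 5 such tests). This p is the smallest that 8 arrays can give. The Cy5 difference was -0.15, -0.14, -0.11 and -0.09 on test_in_Cy5 replicates 1 to 4 and -0.12, -0.13, -0.04 and -0.09 on test_in_Cy3 replicates 1 to 4, so the bright array had the smallest one. Between the 2 dye orientations no change of this difference was detected (exact permutation test of 4 against 4 arrays, p = 0.943 in Cy3 and 0.286 in Cy5), where the smallest possible p is 0.0286. With test and ref exchanged on both arrays numbered 4, where control spots had reversed ratios, the exact permutation p was 0.857 and 0.343.

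The small difference from the pooled remainder covered larger ones of opposite sign against single libraries. In Cy5 the log2 median of UI-R-C0 minus that of UI-R-A0 was -0.52 ± 0.13, and minus that of UI-R-A1 and UI-R-E0 it was -0.52 ± 0.13 and -0.49 ± 0.10 (SD, n = 8 arrays). Against UI-R-E1 it was -0.15 ± 0.040. Against UI-R-C1 and UI-R-C2 it was above 0, at 0.30 ± 0.087 and 0.36 ± 0.092, so the median UI-R-C0 clone was 1.23 and 1.29 times as bright as theirs. The Cy3 differences had the same signs and were smaller, from -0.23 ± 0.049 against UI-R-A1 to 0.15 ± 0.080 against UI-R-C2. Each of these 12 differences had 1 sign on 8 of 8 arrays (exact sign-flip permutation test, p = 0.00781 before and after adjustment over the 12). Among the libraries compared here, UI-R-C0 thus stood between a brighter set (UI-R-A0, UI-R-A1, UI-R-E0 and UI-R-E1) and a dimmer pair (UI-R-C1 and UI-R-C2). UI-R-C2p (70 clones), UI-R-BT0 (64) and UI-R-Y0 (136) were not compared in this way. Their log2 medians, averaged over both channels and 8 arrays, were 17.31, 17.40 and 17.13, against 17.25 for UI-R-C0.

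In spot rows that held at least 40 clones of UI-R-C0 and of another library, the same order was found except in row 17. In row 13 the Cy5 difference of 192 UI-R-C0 clones was -0.45 ± 0.14 from 192 UI-R-A0 clones and -0.29 ± 0.086 from 96 UI-R-E0 clones (SD, n = 8 arrays). In row 5 that of 225 UI-R-C0 clones was -0.32 ± 0.11 from 255 UI-R-E1 clones. In rows 2 and 11 the difference from UI-R-C1 was 0.34 ± 0.15 and 0.39 ± 0.12. These 5 had 1 sign on 8 of 8 arrays (exact sign-flip permutation test, adjusted p = 0.0109 over 14 tests). In row 17 the 316 UI-R-C0 clones differed from 116 UI-R-C1 clones by 0.03 ± 0.079 (adjusted p = 0.362 in the exact permutation test, above 0 on 5 of 8 arrays) and were brighter than 48 UI-R-E1 clones by 0.13 ± 0.092 (adjusted p = 0.0199 in the exact permutation test, above 0 on 7 of 8 arrays). The comparison by rows was added after the layout had been seen.

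Row 17 held a distinct subset of the library. Its UI-R-C0 clones came from 74 of the 78 plates that the clone names give, whereas no other row held clones of more than 15 plates. The 313 clones spotted only in row 17 had a median intensity, averaged over both channels on the log scale, of 198319, 175598, 164462 and 175998 on test_in_Cy5 replicates 1 to 4 and of 201692, 189930, 460393 and 163790 on test_in_Cy3 replicates 1 to 4. The 2407 clones spotted only elsewhere had 146755, 129725, 133437 and 137407, then 144169, 137783, 342477 and 123149. The row 17 clones were higher on 8 of 8 arrays, by 0.41 ± 0.059 on the log2 scale (SD, n = 8 arrays), or 1.33-fold. The row was singled out after its values were seen, so no test is given.

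The row 17 subset also differed from clones of the same plates. In 44 plates with at least 3 clones in row 17 and 10 elsewhere, the row 17 median was higher in 38, with a median difference of 0.40 on the log2 scale and a range of -0.19 to 2.49. Clones of other libraries printed in row 17 were brighter than the rest of their library as well, by 0.60 for 116 UI-R-C1 clones and by 0.19 for 47 UI-R-E1 clones. In 3 clones spotted both in row 17 and in another row, the row 17 spots were brighter by 0.30 ± 0.33 (UI-R-C0-hn-e-07-0-UI, row 3), 0.28 ± 0.16 (UI-R-C0-jg-d-07-0-UI, row 12) and 1.04 ± 0.18 (UI-R-C0-jq-b-05-0-UI, row 11) (log2, SD, n = 8 arrays), higher on 7, 8 and 8 of 8 arrays. They were named after their values were seen. Over all 10 clones spotted 4 times, the difference between their 2 positions had a median of 0.18 and ran from 0.049 to 1.02, against a median of 0.049 between neighbouring spots. It exceeded the neighbour difference in 9 of the 10.

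Plates differed among themselves too. The 60 plates with 20 or more clones on the array, 2632 clones in all, had median intensities from 138421 to 186081, and 0% to 20% of their clones were above the blanks, by the rule given next, on all 8 arrays. The 2 plates with 10 to 19 clones had medians of 195659 and 227887. The 16 plates with fewer than 10 clones had medians from 165140 to 812746 (68 clones), and 65 of those 68 clones lay in row 17. Well rows, read from the letter in the clone name, had log2 medians from 17.22 to 17.30, and the 12 well columns had medians from 17.19 to 17.32. Neighbouring spots of a UI-R-C0 clone differed by a median of 0.049 ± 0.0045 in Cy3 and 0.058 ± 0.0061 in Cy5 (log2, SD, n = 8 arrays), against 0.050 ± 0.0054 and 0.059 ± 0.0096 for the other clones.

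A clone was counted as above the blanks on an array where it lay over the blanks' 95th percentile in both channels (56 blanks). By this rule 16.6%, 22.6%, 16.6% and 21.0% of UI-R-C0 clones were above the blanks on test_in_Cy5 replicates 1 to 4, and 21.2%, 24.3%, 11.2% and 19.3% on test_in_Cy3 replicates 1 to 4. The bright array had the lowest share. The other clones had 15.1% on that array and 21.9% to 30.6% on the remaining 7. UI-R-C0 was lower on 8 of 8 arrays, with a difference of -5.78 ± 0.911 percentage points (SD, n = 8, exact sign-flip permutation test, p = 0.00781, adjusted p = 0.00781 over 5 tests). With the brightest blank as the limit the difference was -0.681 percentage points.

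On all 8 arrays together, 211 UI-R-C0 clones were above the blanks, or 7.75% (exact 95% binomial interval 6.77% to 8.82%, which covers counting error only). The share over all clones was 10.8%, and among the other clones it was 12.2%, or 737 of 6055. The array test_in_Cy3 replicate 3 had the lowest share, 11.2% of UI-R-C0 and 15.1% of the others, which limits these counts. They were not repeated without that array. A further 620 UI-R-C0 clones (22.8%) passed on 1 to 7 arrays, and 1892 (69.5%) passed on none, against 64.1% of the other clones. The share on all 8 arrays was 19.6% in UI-R-A0, 9.44% in UI-R-E1, 4.09% in UI-R-C1 and 1.42% in UI-R-C2. Within UI-R-C0, 68 of the 313 row 17 clones (21.7%) and 143 of the 2407 clones elsewhere (5.94%) passed on all 8 arrays. All blanks lay in the neighbouring row 16, and a trend of brightness with spot row was not tested.

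The bright tail of UI-R-C0 was shorter than that of the pooled other clones, though not than that of every library. Of its clones, 7.75%, 7.68%, 7.31% and 7.31% were among the brightest 10% of all clones on test_in_Cy5 replicates 1 to 4, and 7.86%, 7.86%, 7.75% and 7.64% on test_in_Cy3 replicates 1 to 4. The other clones had 10.97% to 11.21%. The difference was -3.42 ± 0.320 percentage points and lay below 0 on 8 of 8 arrays (SD, n = 8, exact sign-flip permutation test, p = 0.00781, adjusted p = 0.00781 over 5 tests). For the brightest 1% the gap was relatively wider. Between 5 and 10 UI-R-C0 clones were among the 88 brightest on a single array, which was 0.184% to 0.367% of the library against 1.29% to 1.37% of the other clones. By library, the share in the brightest 10% over all arrays together was 7.64% in UI-R-C0, 2.79% in UI-R-C1, 1.24% in UI-R-C2, 4.29% in UI-R-C2p and 8.27% in UI-R-E1. The brightest 1% over all arrays together held 7 UI-R-C0 clones and 81 others, 44 of them from UI-R-A0. This was 0.257% of UI-R-C0, against 0.744% of UI-R-C1, 0.670% of UI-R-E1 and 0% of UI-R-C2.

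No UI-R-C0 clone was among the 27 brightest on any array, its best rank being 28 to 43. None reached the scanner ceiling of 5242800 in either channel on any array, whereas 22 of the other clones did on at least 1. The 99th percentile of the library lay 2.91 log2 units above its median, against 3.43 for the other clones. It was 2.95 for UI-R-E1, 3.22 for UI-R-C1 and 1.94 for UI-R-C2. The interquartile range was also narrower, at 0.32 to 0.76 against 0.42 to 0.89 in Cy3 and at 0.79 to 1.17 against 1.05 to 1.51 in Cy5.

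The 5 brightest clones were UI-R-C0-hb-f-08-0-UI, UI-R-C0-gu-h-03-0-UI, UI-R-C0-ix-h-04-0-UI, UI-R-C0-ho-a-07-0-UI and UI-R-C0-ik-e-05-0-UI, with intensities of 2414767, 2165268, 2036886, 1969978 and 1871781 averaged over both channels and all 8 arrays. They ranked 32, 39, 47, 51 and 56 among all 8778 clones. In Cy5 UI-R-C0-hb-f-08-0-UI had 4735931, 4670366, 3817534 and 4172165 on test_in_Cy5 replicates 1 to 4 and 4890450, 4587423, 4416101 and 3714649 on test_in_Cy3 replicates 1 to 4. In Cy3 it had 1291025, 1265639, 1075250 and 1411097, then 1647650, 1435229, 1281444 and 1372250. On test_in_Cy3 replicate 3, where the median clone was brightest, both its values lay within the range of the other 7 arrays. Of the 5, UI-R-C0-gu-h-03-0-UI and UI-R-C0-ik-e-05-0-UI lay in row 17, and UI-R-C0-ix-h-04-0-UI lay in row 16.

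These 5 were chosen by their mean over the same 8 arrays, which favours high ranks, and they exchanged places between arrays. On test_in_Cy5 replicate 4 UI-R-C0-ik-e-05-0-UI ranked 1 and UI-R-C0-gu-h-03-0-UI ranked 5. UI-R-C0-hb-f-08-0-UI ranked 1 or 2 in the library on 8 of 8 arrays. The other 4 stayed among the first 5 on every array, with the exception of UI-R-C0-ik-e-05-0-UI, which ranked 13 on test_in_Cy3 replicate 3. The lists of the 50 brightest UI-R-C0 clones on single arrays shared a median of 39.5 clones over 28 pairs of arrays. The number shared was 36 to 45 for pairs without test_in_Cy3 replicate 3 and 27 to 33 for pairs with it. On all 8 arrays 23 clones were in the list, and 91 were in it on at least 1. For the other clones, lists of the 111 brightest, the same share of the set, had a median of 81.5% in common against 79.0% for UI-R-C0, and 66 of the 111 were on all 8.

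Over the whole library brightness ranks correlated less between arrays than over the other clones. Spearman's rho of brightness between arrays, across the 2723 clones, averaged 0.797 over the 28 pairs and ran from 0.587 to 0.928. Across the other 6055 clones it averaged 0.855 and ran from 0.704 to 0.952. The pairs share arrays and the clones share printing, so these are descriptions without a test. The library also had the narrower interquartile range of brightness, and a narrower range by itself lowers rho. This was not taken into account, and single libraries were not compared in this way. Without test_in_Cy3 replicate 3 the averages were 0.848 and 0.894. Between Cy3 and Cy5 of 1 array rho was 0.909 to 0.991 for UI-R-C0 and 0.944 to 0.993 for the others.

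Within bins of brightness, rho was highest among the brightest clones, and higher among the dimmest clones than among those just above them. The bins held equal numbers of clones, not equal ranges of brightness, and a narrower range by itself lowers rho. The width of the bins was not taken into account, so these values do not rank the bins by stability. When all clones were divided into 5 bins of equal size by mean brightness, UI-R-C0 made up its bins with 511, 636, 626, 519 and 431 clones from the dimmest to the brightest. The mean rho between arrays within these bins was 0.208, 0.0934, 0.0950, 0.410 and 0.83 for UI-R-C0, and 0.209, 0.0878, 0.120, 0.454 and 0.871 for the other clones. In all bins but the brightest some pairs of arrays had a rho below 0 for UI-R-C0, down to -0.226, -0.51, -0.391 and -0.227, so the order there was not shared between all arrays. In the brightest bin the lowest was 0.541. The brightest bin held 15.8% of UI-R-C0 clones and 21.9% of the others. Among the 211 UI-R-C0 clones above the blanks on all 8 arrays, rho averaged 0.841, and among the 737 others 0.879.

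The 2 clones with the widest range of ranks among these 211 were UI-R-C0-hh-f-11-0-UI and UI-R-C0-im-d-04-0-UI. UI-R-C0-hh-f-11-0-UI ranked 416, 426, 316 and 443 of the library on test_in_Cy5 replicates 1 to 4 and 254, 608, 152 and 482 on test_in_Cy3 replicates 1 to 4. UI-R-C0-im-d-04-0-UI ranked 335, 330, 244 and 508, then 402, 359, 141 and 498. Both had their best rank on test_in_Cy3 replicate 3. Without that array their ranges fell from 456 to 354 and from 367 to 264 ranks.

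The dye ratio, ch2 (Cy5) over ch1 (Cy3), was above 1 for the median UI-R-C0 clone on every array. After normexp background correction the median log2 Cy5/Cy3 was 2.18, 1.95, 1.88 and 1.73 on test_in_Cy5 replicates 1 to 4 and 1.96, 1.88, 1.75 and 1.35 on test_in_Cy3 replicates 1 to 4. It was lower than that of the other clones on 8 of 8 arrays, by 0.0295 ± 0.024 log2 units (1.83 against 1.86, SD, n = 8, exact sign-flip permutation test, p = 0.00781, adjusted p = 0.00781 over 5 tests). Within the 5 brightness bins the difference was 0.0068, -0.0098, -0.0050, 0.0035 and 0.0058 log2 units, with an exact permutation p of 0.117 or more and an adjusted p of 0.586 or more. The library's ratio rose across these bins from 1.34 ± 0.28 to 2.00 ± 0.32, and that of the other clones from 1.33 ± 0.32 to 2.00 ± 0.30 (log2, SD, n = 8 arrays). After loess within each array the difference between the library and the rest was 0.0045 ± 0.014 log2 units, above 0 on 6 of 8 arrays (exact permutation p = 0.375). Without spot row 17 the difference before loess was -0.05.

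Clone by clone, the dye effect was taken from a limma fit over all 8778 clones and 8 arrays, as the mean log2 Cy5/Cy3 after loess. At a limma adjusted p under 0.05, 52 UI-R-C0 clones (1.91%) had a dye effect, where 2.63% of all clones were called and 179 of the other 6055 (2.96%). Cy5 was higher for 11, or 0.404% against 0.456% of all clones, and Cy3 was higher for 41, or 1.51% against 2.18% of all clones. At an unadjusted p under 0.05 the share was 24.2% against 24.4% over all clones, and the sign was the same on 8 of 8 arrays for 5.58% of UI-R-C0 clones against 6.35% of all. The difference in shares was not tested. The called UI-R-C0 clones were dim, with 49 of the 52 above the blanks on no array and 1 on all 8, against 139 and 32 of the other 179. None had a spot at the scanner ceiling, as 21 of the others did.

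The called effects ran from -1.93 to 1.30 on the log2 scale, with a median size of 0.61, and 7 of the 52 exceeded 1 in size. Among the 179 called clones of other libraries the median size was 0.69, and 51 exceeded 1. Over the whole library the median size was 0.11 and the 95th percentile 0.65, against 0.11 and 0.66 for the other clones. Without background correction these sizes were 0.032 and 0.098 for the library, against 0.033 and 0.11 for the other clones. The median residual standard deviation was 0.26 log2 units in UI-R-C0 and 0.24 in the others. Within single arrays the loess log2 ratios of the library had a standard deviation of 0.16 on test_in_Cy3 replicate 3 and of 0.42 to 0.64 on the other 7. Of the 52 calls, 2 were among the 313 row 17 clones (0.639%) and 50 among the 2407 elsewhere (2.08%), a difference that was not tested.

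By the naming rule, UI-R-C0-iw-d-08-0-UI and UI-R-C0-gy-d-05-0-UI stood for the clones with Cy5 higher. UI-R-C0-gy-d-05-0-UI had a log2 Cy5/Cy3 of 0.50, 0.43, 0.88 and 0.76 on test_in_Cy5 replicates 1 to 4 and of 0.23, 0.33, 0.04 and 0.38 on test_in_Cy3 replicates 1 to 4. Its dye effect was 0.44 ± 0.066 (SE, limma adjusted p = 0.0227). UI-R-C0-iw-d-08-0-UI had 0.80, 1.16, 1.06 and 0.56, then 0.59, 0.99, 0.07 and 0.83, with an effect of 0.76 ± 0.11 (SE, limma adjusted p = 0.0223). Both were closest to 0 on test_in_Cy3 replicate 3.

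With Cy3 higher, UI-R-C0-hz-b-08-0-UI had -1.65, -1.21, -3.34 and -1.26 on test_in_Cy5 replicates 1 to 4 and -0.89, -1.39, -0.22 and -0.85 on test_in_Cy3 replicates 1 to 4. Its effect was -1.35 ± 0.25 (SE, limma adjusted p = 0.0364). UI-R-C0-gu-e-07-0-UI had -2.18, -2.84, -2.17 and -1.50, then -1.74, -1.97, -0.09 and -2.98, with an effect of -1.93 ± 0.29 (SE, limma adjusted p = 0.0227). All 4 named clones were above the blanks on 0 of 8 arrays. Of 17 or 18 alternatives tried, 9 to 13 ended the call for each of them. With arrays left out, and the processing of the main fit kept, the effects themselves moved little. UI-R-C0-iw-d-08-0-UI lay at 0.70 to 0.85, UI-R-C0-gy-d-05-0-UI at 0.40 to 0.48, UI-R-C0-gu-e-07-0-UI at -2.20 to -1.72 and UI-R-C0-hz-b-08-0-UI at -1.46 to -1.10. In the same order, the effects with loess per print block were 0.31, -0.02, -0.62 and -0.53. With the authors' values they were 0.04, -0.0079, -0.04 and -0.06. Without background correction they were 0.099, 0.061, -0.091 and -0.16, and with plain subtraction of the local background 0.10, 0.062, -0.096 and -0.17. Median centring gave 0.34, 0.077, -2.83 and -1.79. The size of these effects thus depended strongly on the processing. The replicate block and ordinary least squares returned the effects of the main fit unchanged. With all 8 arrays kept, these 2 settings could alter only the standard errors, so they do not test the size of the effects.

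The number of dye calls in the library depended strongly on the processing and on single arrays. Without background correction 201 UI-R-C0 clones were called (7.38%, against 8.61% of all clones), and with loess per print block 2 (0.0734%, against 0.399%). With the authors' values 99 were called (3.64%, against 5.09%). Plain subtraction of the local background gave 174 (6.39%, against 7.44%) and median centring 741 (27.2%, against 28.9%). Among the 211 clones above the blanks 7 were called (3.32%, against 8.97% of the 948 such clones of all libraries). In each of these settings the share in UI-R-C0 was lower than that over all clones. Without any 1 array other than test_in_Cy3 replicate 3 the count was 2 to 33 (0.0734% to 1.21%, against 0.353% to 1.72% of all clones). It was lowest without test_in_Cy3 replicate 1. Without test_in_Cy3 replicate 3 it was 55 (2.02%, against 2.60% of all clones).

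The other coefficient of the fit, test over ref, sets the RNA against itself with the dye effect taken out. No UI-R-C0 clone was called by limma at an adjusted p under 0.05, the smallest adjusted p being 0.688, and no clone of any library was called (0%). At an unadjusted p under 0.05 there were 195 UI-R-C0 clones (7.16%, against 7.12% of all clones). Ordinary least squares called 0 of the library, with 184 past the unadjusted threshold (6.76%, against 7.6% of all clones). UI-R-C0-hg-h-10-0-UI had the smallest p of the library, with test over ref at -0.52 ± 0.088 (SE, limma adjusted p = 0.688). Its log2 Cy5/Cy3 was -1.67, -1.13, -1.18 and -1.07 on test_in_Cy5 replicates 1 to 4 and -0.52, 0.04, -0.11 and -0.35 on test_in_Cy3 replicates 1 to 4, and it was above the blanks on no array. Of 18 numbered control sets, 5 had a mean log2 test over ref above 1 in size on the other numbers, with the dye effect taken out. In 5 of these 5 its sign was reversed on the arrays labelled number 4. The labels were kept as given, and the direction of test over ref on those 2 arrays is not settled by these files. Without them 0 UI-R-C0 clones were called, and with test and ref exchanged on them 0 were called as well, with 119 (4.37%, against 4.66% of all clones) at an unadjusted p under 0.05 and a smallest adjusted p of 0.913. UI-R-C0-hg-h-10-0-UI then had a test over ref of -0.33 ± 0.17 (SE, limma adjusted p = 0.999).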

How the data were processed

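Per the file headers, the deposited scanner tables give an intensity and a local background intensity per spot in 2 channels, not background-subtracted, with a 0 or 1 flag of unstated meaning. The sources used here name no scanner or software. The authors' deposited value table was read as log2 test over ref, because per array its correlation with the background-subtracted ratio was 0.583 to 0.824 and it had 0.92 to 1.01 times its spread after loess per print block; its scale, centring and method are not stated. It served as an alternative.

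Brightness used the deposited intensity, as the mean log2 over a clone's spots. Ratios were corrected with normexp (offset 50) and loess (span 0.3, 4 iterations) and fitted with limma 3.58.1 in R 4.3.3, with Benjamini-Hochberg adjustment over 8778 clones. Differences from other clones were tested over 8 arrays by exact sign flips (SciPy 1.17.1). On simulated data of 8778 clones the dye comparison recovered 55% of 100 UI-R-C0 clones changed by 0.5 and 78% of 100 changed by 1 (log2), with 2 false calls. For test over ref it was 54% and 80%, with 8 false calls. The simulated noise was independent between clones and arrays, without print blocks or a bright array. The false calls therefore do not give the error rate in the real data. The number of arrays limits the precision.

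Same-numbered arrays of both orientations deviated with correlations of -0.018, 0.16, 0.016 and 0.063, so the numbers were not taken as pairs. Named clones were the 5 brightest, the 2 largest called dye effects per direction with 1 sign on 8 arrays and no saturated spot, the 2 widest rank ranges above the blanks and the smallest test over ref p. The members and lists were chosen with earlier results of these data known.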

Additional observations from a re-analysis of the deposited data

Results flagged for a closer look

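In 24 measures of UI-R-C0 tested in both orientations (48 groups of 4 arrays), 6 values stood apart from the other 3 of their group by Dixon's criterion, which chance gives in about 5% of groups of continuous values. The median Cy5 brightness of the library on test_in_Cy3 replicate 3 was 19.18 (log2), against 17.26 to 17.55 on the other arrays of its orientation. The difference from the other clones in the share above the blanks was -5.37 percentage points on test_in_Cy5 replicate 1, against -6.46 to -6.39. The remaining 4 were ranks of the brightest clones, where the other 3 arrays had identical ranks. There a change of 1 rank is enough to meet the criterion, so that rate does not apply to them. UI-R-C0-hb-f-08-0-UI ranked 2 on test_in_Cy5 replicate 4 against 1, and UI-R-C0-ix-h-04-0-UI ranked 4 on test_in_Cy5 replicate 3 against 3. UI-R-C0-ho-a-07-0-UI ranked 2 on test_in_Cy5 replicate 3 against 4, and UI-R-C0-ik-e-05-0-UI ranked 1 on test_in_Cy5 replicate 4 against 5.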

How the results depend on the processing

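The differences of UI-R-C0 from other clones in brightness, share above the blanks and bright tail kept their direction and their p under 0.05 with local background subtracted, with flag 0 spots left out, without any 1 array and, where run, with print blocks centred, with only the blocks that hold blanks, with the brightest blank as the limit and for the brightest 1%. Without spot row 17, an alternative chosen after seeing the data, they were larger, at -0.06 (Cy3) and -0.15 (Cy5) log2 units, -7.74 and -4.50 percentage points. Without test_in_Cy3 replicate 3 the same differences were -0.043 (Cy3) and -0.118 (Cy5) log2 units, -6.06 and -3.44 percentage points. Without that array the dye ratio difference before loess was -0.032 log2 units. The dye ratio difference was 0.0045 after loess within array, -0.0599 without background correction and -0.0506 without row 17; the cause was not tested.

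The count of UI-R-C0 dye calls, 52, became 201 without background correction, 174 with plain subtraction, 741 with median centring, 2 with loess per print block, 99 with the authors' values, 7 among clones above the blanks, 34 with the replicate block (1.25%, against 1.71% of all clones), 3 with ordinary least squares (0.11% against 0.387%) and 25 without flag 0 spots (1.23% against 2.28%), where fewer clones had a value on every array. Leaving out 1 array gave 2 to 55 (0.0734% to 2.02%, against 0.353% to 2.60%). For both arrays numbered 4, in alternatives added after seeing the data, leaving them out gave 6 (0.22% against 0.672%) and exchanging test and ref on them gave 26 (0.955% against 1.41%). Without background correction 93 of 201 had Cy5 higher, with the authors' values 56 of 99, and in the main analysis 11 of 52. Over all clones this split was taken only in the main analysis, with Cy5 higher in 40 of 231 calls. The replicate block left the count for test over ref at 0. The dye effect of UI-R-C0-gy-d-05-0-UI was -0.022 with loess per print block and -0.0079 with the authors' values. Brightness near the blanks limits what the ranks and ratios of most of the library can show.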
